A study of Mus musculus with 383 samples.

Results

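Within Epcam-positive tumour cells of mouse skin squamous cell carcinoma, cells high in Mki67 or Top2a were compared with cells low in both. A cell was called cycling when either gene reached 50 reads per 1000000 gene reads (CPM) and non-cycling when both lay below that level. By this rule 21 cells were cycling and 41 non-cycling, together the 62 kept of 70 Epcam-positive cells, in a series of 380 single cells. The classes were chosen by the measured levels of these 2 genes in the cells that are then described, so every difference between the classes is a description and no test was made.

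The tumours came from mice whose engineered alleles include a Cre driven by Lgr5, a gene of hair follicle stem cells (Lgr5CreER). In the same mice p53 is floxed (p53fl/fl) and YFP marks recombined cells (Rosa26-YFP+/+). Both classes therefore share genotype, tumour type and sort (living single cells, YFP-positive and Epcam-positive) and carry no treatment in the labels, which give no age. Single-cell cDNA was made with Smart-seq2, which amplifies full-length transcripts and adds no molecular identifiers, and reads per gene were counted in each well. The labels name no animal, so each sorted population is 1 sample and cells are not replicates of a condition; intervals are 95% intervals and cover counting error only.

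The cell cycle runs from growth in G1 through DNA synthesis in S phase to G2 and mitosis. S phase needs the replicative helicase, the polymerases and deoxynucleotides, whose genes are switched on by E2F factors at the end of G1. Genes of the spindle, the kinetochore and the mitotic kinases follow in G2 and are switched on through B-Myb and FoxM1. In stratified epidermis the dividing cells sit in the basal layer and leave the cycle as they differentiate. Mki67 encodes a protein that coats mitotic chromosomes, and Top2a a topoisomerase that untangles DNA before chromosomes separate; both are low or absent in resting cells.

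Among the control wells, the library labelled as a 0-cell Epcam-positive control went against its label. It held 99241 gene reads over 8248 genes and 7.66% spike-in reads, and its Mki67 (5 reads, 50.4 CPM) and Top2a (19 reads, 191.5 CPM) would have passed the cut. The 0-cell Epcam-negative well had 4018 gene reads, 76.2% spike-in reads and 1 read of Top2a. Neither well entered a comparison, and how much of the low counts in single cells has the same source was not tested. The cycling cells had 109743 to 603775 gene reads (median 383032) and the non-cycling cells 137285 to 730528 (median 431916). Epcam was present in 20 of 21 cycling and 40 of 41 non-cycling cells, where present means at least 5 reads after each cell was thinned to 100000 gene reads. The basal keratins Krt5 and Krt14 were present in all 62 cells and Cdh1, encoding E-cadherin, in 15 of 21 and 33 of 41, so both classes carried the epithelial label. Of 12 immune markers, 6 had reads in cycling and 7 in non-cycling cells, and at least 1 was present in 4 of 21 and 12 of 41 cells. Those with no read in either class were Ptprc, Adgre1, Itgam, Csf1r and Laptm5.

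The share of cycling cells was 33.9% (exact Clopper-Pearson interval 22.3 to 47.01%). The labels name no well, so plate rows and columns here and below were assigned from the index pair in each library's title. Plate columns 1 to 12 held 10 cycling of 31 cells, columns 13 to 24 held 11 of 31. By plate row the cycling cells were 4 of 19 in row A, 10 of 20 in row B and 7 of 23 in row C. The sort used a doublet gate, so the share describes the cells that passed it. Mki67 (ENSMUSG00000031004.8, chr7:135689784-135716361, minus strand, GRCm38) ranged from 0 to 616 CPM (median 129.02) over the cycling cells and from 0 to 29.7 CPM (median 0) over the non-cycling cells. Top2a (ENSMUSG00000020914.17, chr11:98992943-99024189, minus strand) ranged from 0 to 971 CPM (median 208.2) over the cycling cells and from 0 to 21.6 CPM (median 0) over the non-cycling cells. Both genes were past the cut in 12 of the cycling cells, Mki67 alone in 4 and Top2a alone in 5. At the other end, 20 of the 41 non-cycling cells had no read of either gene.

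In all, 7 cells lay near the cut, with the higher of the 2 genes between 25 and 100 CPM. The 2 just outside stood at 27.8 and 29.7 CPM and the 5 just inside at 52.99, 63.3, 64.7, 69.5 and 70.4 CPM. The gap between 29.7 and 52.99 CPM held no cell.

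**Figure D1:**
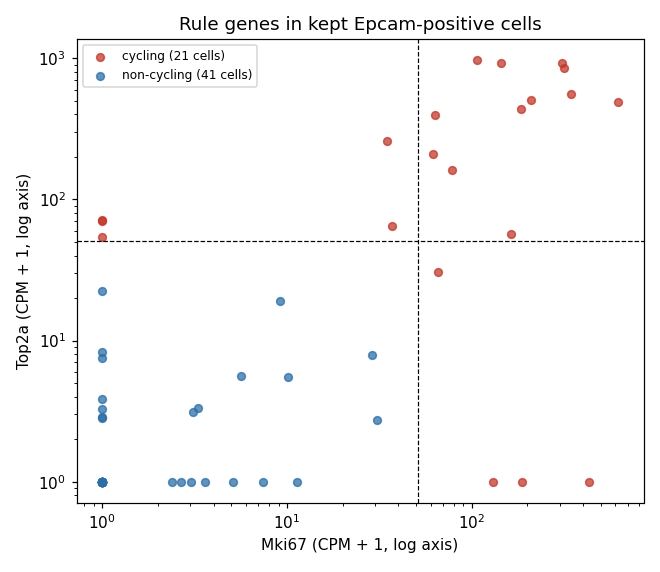
Mki67 (horizontal) against Top2a (vertical) in each kept Epcam-positive cell, both as CPM + 1 on log axes, with the cut at 50 CPM dashed. Of the 21 cycling cells 12 lie in the upper right field, and the 41 non-cycling cells fill the lower left one, 20 of them at 0 for both genes.

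Across the transcriptome 9238 genes were measured, with at least 10 CPM in either class after reads were summed over its cells. Ratios are log2 of (CPM in cycling + 1) over (CPM in non-cycling + 1). In all, 1170 genes (12.7%) were 2-fold or more higher in cycling cells and 1131 (12.2%) 2-fold or more lower, with a median log2 ratio of 0.05. Without the cell with most reads of a gene in each class, 939 of the former and 1048 of the latter still passed 2-fold. Scaling to spike-in reads in place of gene reads shifts the ratios by 0.66 on the log2 scale, and TMM factors shift them by -0.09. The spike-in shift uses gene reads per spike-in read summed over each class, 219.3 in cycling and 138.5 in non-cycling cells. The class medians of the same measure, 235.9 and 200.6, lie closer together, with a ratio of 1.18. Values with spike-in scaling below all use the sums and would move less with the medians. Since the rule cut these same cells, the shares of called genes are a background to read list counts beside and carry no weight of their own.

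The genes of DNA synthesis were higher in the cycling cells. Of 63 genes on the lists for S phase, 58 were measured, 55 of them higher in cycling cells, 39 by 2-fold or more (12.7% of all genes were), and the median log2 ratio was 1.51. Among genes of origin licensing, origin firing and their control, the largest ratio with reads in several cells was that of Cdc45. This component of the replicative helicase had 68.1 CPM in cycling and 7.503 CPM in non-cycling cells, a log2 ratio of 3.02 (2.77 to 3.28). It was present in 6 of 21 cycling and 3 of 41 non-cycling cells, and 49.5% of the cycling reads came from 1 cell, without which the values were 36.9 against 4.77 CPM (log2 ratio 2.72). The log2 ratio of Cdc45 fell below 2-fold with the cut at 100 CPM (0.88), with Top2a alone (0.89) and with both genes past the cut (0.87). In the plate it was 3.57 for columns 1 to 12 and 1.70 for columns 13 to 24. The Dbf4 activator of the origin-firing kinase stood at 131.6 CPM in cycling and 22.4 CPM in non-cycling cells (log2 ratio 2.50, interval 2.34 to 2.67) and was present in 15 of 21 cycling and 7 of 41 non-cycling cells. The helicase subunits Mcm2 and Mcm6 had log2 ratios of 1.61 and 1.69, the latter 2.34 without the top cells. All 16 measured genes of this group of origin genes were higher and 12 passed 2-fold, among them Gins3. Gins3 was present in 1 cycling cell, had a log2 ratio of 2.59 (1.05 without the top cells) and stood at -0.41 in plate columns 1 to 12.

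At the replication fork 13 of 19 measured genes were 2-fold higher and 1 was 2-fold lower (background 12.7% and 12.2%). Prim1, the catalytic subunit of the primase, had the largest ratio. It ranged from 0 to 652 CPM (median 101.04) over the cycling cells and from 0 to 206.1 CPM (median 0) over the non-cycling cells. Summed over cells it reached 215.6 CPM in cycling and 12.4 CPM in non-cycling cells, a log2 ratio of 4.01 (3.81 to 4.21), and it was present in 14 of 21 cycling and 4 of 41 non-cycling cells. The classes overlapped, since 4 non-cycling cells also carried it. Rfc4, a subunit of the clamp loader, was present in 13 of 21 cycling and 7 of 41 non-cycling cells with a log2 ratio of 2.003 (1.86 to 2.15). Pcna, the sliding clamp and a widely used proliferation marker, differed by less than 2-fold when scaled to gene reads. Spike-in scaling shifts the ratios upward by 0.66. It ranged from 25.2 to 985 CPM (median 164.2) over the cycling cells and from 0 to 576 CPM (median 143.4) over the non-cycling cells, was present in 17 of 21 cycling and 32 of 41 non-cycling cells and had a log2 ratio of 0.54 (0.46 to 0.63). Pold1, the catalytic subunit of DNA polymerase delta, went the other way with 9.44 CPM in cycling and 26.7 CPM in non-cycling cells (log2 ratio -1.41, interval -1.74 to -1.08; -2.10 in columns 1 to 12 and -0.52 in columns 13 to 24 of the plate).

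Enzymes that supply deoxynucleotides were present in many cells of both classes. Tyms, thymidylate synthase, ranged from 0 to 586 CPM (median 210.3) over the cycling cells and from 0 to 307.7 CPM (median 11.5) over the non-cycling cells. It was present in 18 of 21 cycling and 12 of 41 non-cycling cells, and its log2 ratio was 2.29 (2.17 to 2.41). Rrm1, the large subunit of ribonucleotide reductase, was present in 19 of 21 cycling and 16 of 41 non-cycling cells at 366.8 CPM in cycling and 94.9 CPM in non-cycling cells (log2 ratio 1.94, interval 1.85 to 2.03). Tk1, thymidine kinase, had 204.02 CPM in cycling and 48.6 CPM in non-cycling cells and was present in 16 of 21 cycling and 13 of 41 non-cycling cells. Of the 10 genes on this list 6 passed 2-fold (background 12.7%) and none was lower. Among the factors of chromatin and repair in S phase, 8 of 13 were 2-fold higher. The histone chaperone Asf1b stood at 108.6 CPM in cycling and 9.65 CPM in non-cycling cells (log2 ratio 3.36, interval 3.14 to 3.59, 3.96 without the top cells). Uhrf1, which carries DNA methylation to new strands, had 61.6 CPM in cycling and 11.7 CPM in non-cycling cells and was present in 8 of 21 cycling and 2 of 41 non-cycling cells. Msh6, a mismatch repair protein, was lower, with 18.5 CPM in cycling and 46.8 CPM in non-cycling cells, a log2 ratio of -1.29 (-1.54 to -1.05).

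The genes of mitosis separated the classes further. Of 68 genes on the kinetochore, checkpoint, anaphase and spindle lists 66 were measured, all 66 were higher in cycling cells and 65 passed 2-fold (background 12.7%), with a median log2 ratio of 3.21. The exception to 2-fold was Ube2s, a ubiquitin-conjugating enzyme of the anaphase-promoting complex, at 0.99. These genes are transcribed together with the 2 genes of the rule, so the direction is part of the choice of cells.

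Aurkb, the kinase of the chromosomal passenger complex, ranged from 0 to 359.2 CPM (median 77.97) over the cycling cells and from 0 to 19.4 CPM (median 0) over the non-cycling cells. Summed, it reached 109.3 CPM in cycling and 0.774 CPM in non-cycling cells (log2 ratio 5.96, interval 5.56 to 6.30; ENSMUSG00000020897.12, chr11:69045647-69051664, plus strand), and it was present in 12 of 21 cycling and 0 of 41 non-cycling cells. For a count of 0 the limit is set at 3 cells of the class in place of a Clopper-Pearson interval, so that a gene present in 0 of 41 cells may still be present in up to 7.32% of such cells, and one in 0 of 21 in up to 14.3%. The other 9 of 21 cycling cells fell below the level called present, which places the overlap between classes at the low end. Ube2c, which passes ubiquitin to mitotic cyclins, ranged from 0 to 2247 CPM (median 266.9) over the cycling cells and from 0 to 84.2 CPM (median 0) over the non-cycling cells. Its sums were 388.9 CPM in cycling and 7.80 CPM in non-cycling cells (log2 ratio 5.47, interval 5.24 to 5.70) with presence in 14 of 21 cycling and 2 of 41 non-cycling cells. Kif11, the motor that pushes spindle poles apart, had 52.8 CPM in cycling and 0.119 CPM in non-cycling cells, the latter from 2 reads, and a log2 ratio of 5.59 (5.22 to 5.73).

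Among kinetochore genes Spc25, a subunit of the Ndc80 complex, stood at 52.8 CPM in cycling and 0.238 CPM in non-cycling cells (log2 ratio 5.44, interval 5.05 to 5.67) and was present in 7 of 21 cycling and 0 of 41 non-cycling cells. Cenpf, a large kinetochore protein of G2 and mitosis, had 157.8 CPM in cycling and 4.41 CPM in non-cycling cells, and 95.9% of its non-cycling reads came from 1 cell. Without the top cell of each class it stood at 128.8 against 0.184 CPM (log2 ratio 6.78). Kif20b and Kif2c, spindle motors, had log2 ratios of 5.58 (5.196 to 5.93) and 5.05 (4.65 to 5.40), and neither was present in a non-cycling cell. What reads of these genes the non-cycling class had thus lay in very few cells. Nusap1, a protein that bundles spindle microtubules, was present in 5 cycling cells, with 44.01% of its reads from 1 of them. Without that cell it had 43.8 against 0.244 CPM (log2 ratio 5.17), against 5.91 with it. Birc5, the survivin subunit of the passenger complex, was present in 18 of 21 cycling and 7 of 41 non-cycling cells, the broadest of these examples, at 441 CPM in cycling and 31.9 CPM in non-cycling cells. In the condensation list 12 of 16 genes passed 2-fold (background 12.7%). Smc2, a condensin subunit, had 294.3 CPM in cycling and 30.1 CPM in non-cycling cells and was present in 17 of 21 cycling and 8 of 41 non-cycling cells. Esco2, which acetylates cohesin in S phase, had no read in non-cycling cells and was present in 2 of 21 cycling cells. Summed over cells it was at least 122.4-fold higher in cycling cells, counted against a floor of 3 reads over the non-cycling class. In cytokinesis 5 of 7 passed 2-fold, led by Cep55, an abscission factor, with 54.05 CPM in cycling and 0.893 CPM in non-cycling cells. All of its non-cycling reads came from 1 cell, and without the top cells the values were 43.2 against 0 CPM (log2 ratio 5.46).

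The cyclins and kinases that drive the cycle were also higher in cycling cells. Of 14 measured cyclins, kinases and phosphatases 12 were 2-fold higher (background 12.7%). Cdk1, the mitotic kinase, ranged from 0 to 1640.2 CPM (median 489) over the cycling cells and from 0 to 526 CPM (median 2.26) over the non-cycling cells. Its log2 ratio was 4.60 (4.45 to 4.76), it was present in 15 of 21 cycling and 3 of 41 non-cycling cells, and 1 non-cycling cell held 59.4% of the non-cycling reads. Without that cell and the top cycling cell the ratio was 5.63, with 8.91 CPM left in non-cycling cells. Ccna2, cyclin A of S phase and G2, had 243.9 CPM in cycling and 6.73 CPM in non-cycling cells (log2 ratio 4.99, interval 4.74 to 5.23) and was present in 15 of 21 cycling and 1 of 41 non-cycling cells. Ccnb1, the mitotic cyclin B, had 194.1 CPM in cycling and 5.66 CPM in non-cycling cells (log2 ratio 4.87, interval 4.61 to 5.14) and was present in 16 of 21 cycling and 1 of 41 non-cycling cells. Wee1, the kinase that holds Cdk1 inactive, was lower, with 23.6 CPM in cycling and 62.5 CPM in non-cycling cells, a log2 ratio of -1.37 (-1.59 to -1.15). Of the factors that switch these genes on, Mybl2, which encodes B-Myb, stood at 36.9 CPM in cycling and 2.80 CPM in non-cycling cells (log2 ratio 3.32, interval 2.96 to 3.67), and Foxm1 at 39.3 CPM in cycling and 3.33 CPM in non-cycling cells (log2 ratio 3.22, interval 2.88 to 3.55). They were present in only 4 and 5 of the 21 cycling cells.

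**Figure D2:**
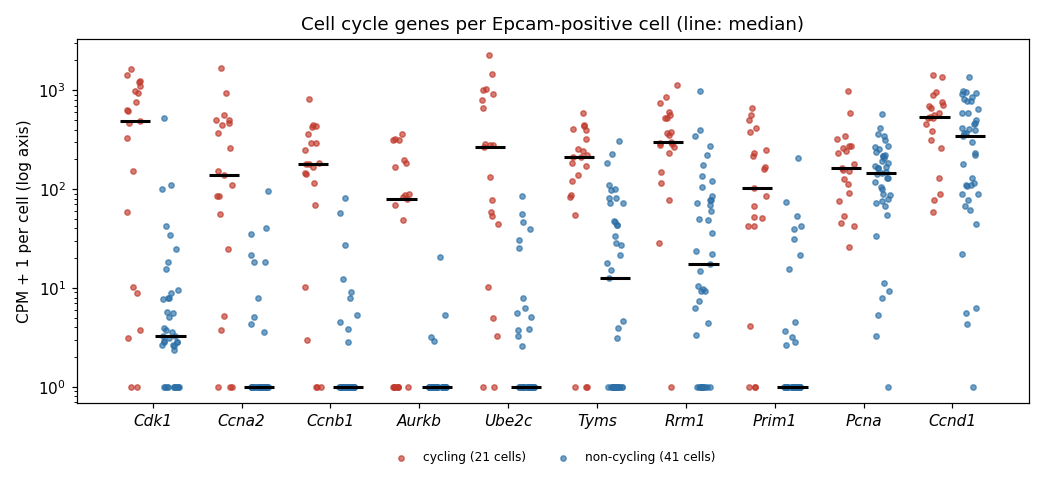
CPM + 1 (log axis) of 10 cell cycle genes in each of the 21 cycling and 41 non-cycling Epcam-positive cells, with class medians as bars. Aurkb, Ccna2 and Ccnb1 have a non-cycling median of 0 CPM and reach 12 to 16 cycling cells. The CPM ranges of Pcna and Ccnd1 overlap between the classes.

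The promoters of these genes are shown because the members of each group were higher together in cycling cells and their promoter elements are known to differ. B-Myb and FoxM1 act through the cell cycle homology region (CHR, TTTGAA), often near a CCAAT box bound by NF-Y, while E2F factors bind sequences such as TTTNNCGC. The first 3 sequences below are from mitotic genes and the last 2 from S phase genes. Each runs 5′ to 3′ along the gene's strand over the 120 bases before the transcription start, from RefSeq (GRCm38.p6), with motif matches on either strand in capitals (CHR and CCAAT box in the first 3, the E2F-like motif in the last 2).
Kif11: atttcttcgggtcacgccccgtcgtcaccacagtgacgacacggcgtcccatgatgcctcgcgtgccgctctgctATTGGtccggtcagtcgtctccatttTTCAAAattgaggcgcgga
Ube2c: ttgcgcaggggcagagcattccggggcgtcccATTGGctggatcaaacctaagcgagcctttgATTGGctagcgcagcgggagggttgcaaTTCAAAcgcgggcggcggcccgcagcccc
Cdk1: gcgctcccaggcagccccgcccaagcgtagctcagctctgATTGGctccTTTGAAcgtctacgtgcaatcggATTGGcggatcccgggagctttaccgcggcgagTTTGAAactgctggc
Uhrf1: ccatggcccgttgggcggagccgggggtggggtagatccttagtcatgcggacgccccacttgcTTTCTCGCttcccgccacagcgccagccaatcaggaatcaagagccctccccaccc
Mcm6: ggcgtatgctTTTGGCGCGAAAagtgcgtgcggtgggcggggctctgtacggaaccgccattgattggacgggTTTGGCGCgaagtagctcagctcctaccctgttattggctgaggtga
The windows are chr19:37376262-37376381 (plus strand), chr2:164769809-164769928 (plus strand), chr10:69352913-69353032 (minus strand), chr17:56303217-56303336 (plus strand) and chr1:128359706-128359825 (minus strand). In Kif11 the CHR lies 14 to 19 bases and a CCAAT box 41 to 45 bases before the start. In Cdk1 a CHR lies 10 to 15 bases and another 66 to 71 bases before it, with CCAAT boxes at 44 to 48 and 76 to 80. Of the 3 E2F-like matches in Mcm6, 1 pair on opposite strands overlaps. The genes were picked because they were 2-fold higher and carried the motif, so that they illustrate the elements and say nothing of how common these are.

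Over the 250 bases before the start, both strands, a CHR was found in 16.3% of 27025 RefSeq promoters, in 8 of the 50 S phase genes with a promoter in the table (16%) and in 15 of the 60 mitotic genes (25%). The CCAAT box (CCAAT) was found in 34.5% of all promoters, 56% of S phase genes and 70% of mitotic genes. Both elements together were found in 5.73%, 10% and 21.7%. The E2F-like motif was found in 4.39%, 22% and 11.7%. A match is only a run of letters in this window and does not show that a factor binds there.

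For most genes of the G1 machinery the ratio was below 2-fold when scaled to gene reads. Of 11 genes on that list 1 was 2-fold higher (background 12.7%), with a list median of 0.56, which spike-in scaling raised past 2-fold to 1.23. That gene was the retinoblastoma relative Rbl1 at 62.9 CPM in cycling and 19.1 CPM in non-cycling cells, and the log2 ratio of Rbl1 was 0.33 in columns 1 to 12 and 3.54 in columns 13 to 24 of the plate. Ccnd1, the cyclin D that mitogens induce, ranged from 57.4 to 1419.7 CPM (median 536) over the cycling cells and from 0 to 1362 CPM (median 341.9) over the non-cycling cells. It was present in 21 of 21 cycling and 35 of 41 non-cycling cells, and its log2 ratio was 0.56 (0.51 to 0.62). Its partner kinase Cdk4 was present in 21 of 21 cycling and 37 of 41 non-cycling cells, with a log2 ratio of 0.75 (0.70 to 0.81). With spike-in scaling the log2 ratios were 1.23 for Ccnd1 and 1.41 for Cdk4. Scaled to gene reads, Cdk6 stood at -0.23 and Ccnd2 at 0.11. Non-cycling cells thus transcribed cyclin D and its kinases at levels that overlapped those of cycling cells.

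Brakes on the cycle differed in both directions. Of 10 measured inhibitors and quiescence genes 7 were lower in cycling cells, 1 by 2-fold (12.2% of all genes were), and the median log2 ratio was -0.58, which spike-in scaling turned to 0.077. Btg2, an antiproliferative early response gene, ranged from 0 to 922 CPM (median 61.5) over the cycling cells and from 0 to 2005 CPM (median 379.3) over the non-cycling cells. Its sums were 125.4 CPM in cycling and 481 CPM in non-cycling cells (log2 ratio -1.93, interval -2.03 to -1.84), with presence in 13 of 21 cycling and 32 of 41 non-cycling cells. The log2 ratio of Btg2 was -3.07 in columns 1 to 12, -1.09 in columns 13 to 24 and -1.16 with both genes past the cut. Cdkn1a, which encodes the inhibitor p21, ranged from 1.96 to 1858 CPM (median 134.1) over the cycling cells and from 2.02 to 2369 CPM (median 444) over the non-cycling cells. It had 326.2 CPM in cycling and 643 CPM in non-cycling cells, a log2 ratio of -0.98 (-1.04 to -0.92), and 1 cycling cell held 42.7% of the cycling reads. Without the top cells it stood at 201.9 against 614 CPM (log2 ratio -1.60). Other settings brought the ratio of Cdkn1a closer to even, with -0.32 under spike-in scaling, -0.61 with the cut at 100 CPM and -0.59 with both genes past the cut. By plate columns it was -0.62 in 1 to 12 and -1.57 in 13 to 24. Cdkn2c, the inhibitor p18 of Cdk4 and Cdk6, had 27.5 CPM in cycling and 12.7 CPM in non-cycling cells (log2 ratio 1.06, interval 0.79 to 1.32). Its log2 ratio was 2.34 in columns 1 to 12 and 0.21 in columns 13 to 24 of the plate, and 0.72 with a pseudocount of 10 CPM. Cdkn2d, the inhibitor p19, was higher overall (76.3 CPM in cycling and 28.2 CPM in non-cycling cells) but had a log2 ratio of -0.41 in columns 1 to 12 and 6.02 in columns 13 to 24 of the plate. Of the 12 measured p53 targets none passed 2-fold and 6 were higher and 6 lower, Cdkn1a among the latter, with a median of 0.023. Trp53, the floxed gene, had reads in both classes (29.4 CPM in cycling and 23.2 CPM in non-cycling cells) and was present in 4 of 21 cycling and 5 of 41 non-cycling cells; whether these reads come from the deleted part of the gene is not shown by a count per gene.

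Within each class the cells ranged over a wide span of cell cycle content. For every cell the S phase genes (of 63) and the mitotic genes (of 68) present after thinning were counted. Cycling cells had 4 to 46 S phase genes (median 23) and 5 to 46 mitotic genes (median 35). Non-cycling cells had 1 to 36 S phase genes (median 8) and 1 to 24 mitotic genes (median 3). With at least 20 mitotic genes there were 16 cycling cells and 1 non-cycling cell. With at least 20 S phase genes there were 13 cycling and 5 non-cycling cells. The mitotic count of 14 cycling cells lay above the highest of the non-cycling cells, the S phase count of 5 did, and both counts did in 3.

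Some cells sat between the classes. The 5 non-cycling cells with at least 20 S phase genes had 36, 33, 31, 23 and 23 of them beside 17, 3, 9, 24 and 3 mitotic genes, and the first of these was the cell at 29.7 CPM just outside the cut. The cells with 33 and 31 had no read of Mki67 or Top2a. In those with 23 the higher of these genes stood at 6.46 and 1.87 CPM. The rule therefore keeps a few cells rich in S phase transcripts on the non-cycling side, most of them well below the cut. On the other side, 1 cell with 428 CPM of Mki67 and no Top2a read had 4 S phase and 7 mitotic genes, and the cell at 52.99 CPM had 14 and 5. Taking both genes to be past the cut left 12 cycling cells.

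The 2 classes also differed in measures of the whole library. Cycling cells had 4069 to 8472 genes with a read (median 7390) and non-cycling cells 3498 to 8878 (median 6570). At a depth thinned to 100000 gene reads the medians were 5914 and 5282. Gene reads per spike-in read, a measure of RNA content, ran from 42.98 to 499.7 (median 235.9) in cycling and from 18.1 to 424 (median 200.6) in non-cycling cells, a ratio of medians of 1.18. The classes overlapped over most of that range, and the ratio was 1.35 for plate columns 1 to 12, 1.72 for columns 13 to 24 and 1.62 without the 7 cells near the cut. Mitochondrial genes took 3.59 to 12.9% of gene reads (median 7.42%) in cycling and 3.09 to 8.54% (median 5.41%) in non-cycling cells.

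**Figure D3:**
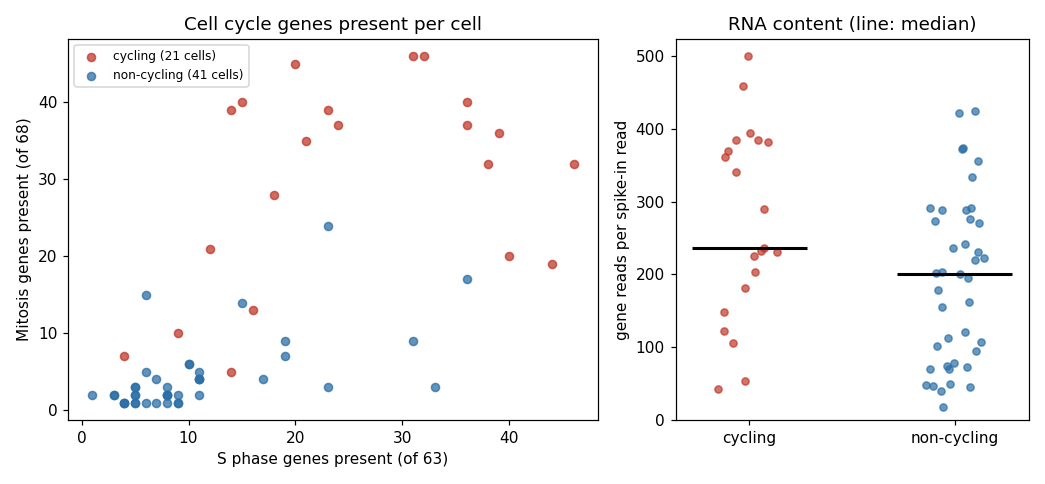
Left, number of S phase genes (of 63) against number of mitotic genes (of 68) present in 100000 thinned reads of each cell; right, gene reads per spike-in read, with medians as bars. The 14 cycling cells above 24 mitotic genes lie clear of all 41 non-cycling cells, whereas RNA content overlaps between the classes (medians 235.9 and 200.6).

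Outside the cell cycle lists, 12 genes were named as the highest in cycling cells among those that met the conditions on level, presence and plate columns. Cdca5, which encodes the cohesin protector sororin, had 62.1 CPM in cycling and 0.119 CPM in non-cycling cells, the latter from 2 reads (log2 ratio 5.82, interval 5.45 to 5.96), and was present in 9 of 21 cycling and 0 of 41 non-cycling cells. Ska1, which couples kinetochores to microtubules, had 84.99 CPM in cycling and 1.55 CPM in non-cycling cells and was present in 10 of 21 cycling and 0 of 41 non-cycling cells. Diaph3, an actin-nucleating formin, had 50.4 CPM in cycling and 1.19 CPM in non-cycling cells (log2 ratio 4.55, interval 4.15 to 4.92). Pclaf, a partner of the sliding clamp, had 119.03 CPM in cycling and 13.6 CPM in non-cycling cells and was present in 15 of 21 cycling and 2 of 41 non-cycling cells. Rad18, a ubiquitin ligase of damage tolerance, had a log2 ratio of 2.47 (2.26 to 2.68), and Nudt1, which clears oxidised nucleotides, one of 2.18 (1.96 to 2.39). Nelfcd, a subunit of a complex that pauses RNA polymerase II, had 71.9 CPM in cycling and 14.8 CPM in non-cycling cells (log2 ratio 2.20, interval 1.997 to 2.41) and was present in 9 of 21 cycling and 8 of 41 non-cycling cells.

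Sox11 and Vim belonged to the same group. Sox11, a transcription factor of embryonic tissues, had 63.6 CPM in cycling and 6.73 CPM in non-cycling cells and was present in 9 of 21 cycling and 2 of 41 non-cycling cells; a single non-cycling cell held 84.1% of the non-cycling reads, and without the top cells the values were 47.5 against 1.10 CPM (log2 ratio 4.53). Vim (ENSMUSG00000026728.9, chr2:13573927-13582826, plus strand), the intermediate filament of mesenchymal cells, ranged from 0 to 9627 CPM (median 185.9) over the cycling cells and from 0 to 3273 CPM (median 43.8) over the non-cycling cells. Its sums were 1233 CPM in cycling and 285.3 CPM in non-cycling cells (log2 ratio 2.11, interval 2.06 to 2.16), and without the top cells 847 against 233.2 CPM (log2 ratio 1.86). It was present in 11 of 21 cycling and 19 of 41 non-cycling cells, and its log2 ratio was 2.10 in columns 1 to 12 and 2.12 in columns 13 to 24 of the plate. With both rule genes required to pass the cut the log2 ratio of Vim was -0.43, so its direction depends on which cells the rule takes as cycling. In Epcam-negative cells the same comparison gave 0.19.

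The genes lowest in cycling cells included secreted factors, feedback genes and stress genes. Among those named for level, presence and a like sign in both sets of plate columns, the largest difference was that of Csf3, the granulocyte colony-stimulating factor, which ranged from 0 to 26.1 CPM (median 2.29) over the cycling cells and from 0 to 2485 CPM (median 3.31) over the non-cycling cells. Its sums were 7.21 CPM in cycling and 231.1 CPM in non-cycling cells (log2 ratio -4.82, interval -5.17 to -4.49), with presence in 0 of 21 cycling and 13 of 41 non-cycling cells, and 36.6% of the non-cycling reads came from the cell at 29.7 CPM just outside the cut. With the cut at 25 CPM, which moves that cell, the log2 ratio of Csf3 was 0.12. Clu, the secreted chaperone clusterin (ENSMUSG00000022037.14, chr14:65968483-65981547, plus strand), ranged from 0 to 494 CPM (median 3.52) over the cycling cells and from 0 to 9256 CPM (median 55.6) over the non-cycling cells. It had 49.6 CPM in cycling and 933 CPM in non-cycling cells (log2 ratio -4.21, interval -4.35 to -4.07), and without the top cell of each class 13.6 against 604 CPM (log2 ratio -5.38). Cebpd, a transcription factor of inflammation and growth arrest, had 24.97 CPM in cycling and 230.3 CPM in non-cycling cells (log2 ratio -3.15, interval -3.36 to -2.96) and was present in 2 of 21 cycling and 21 of 41 non-cycling cells. Igfbp3, which binds insulin-like growth factors, ranged from 0 to 469 CPM (median 13.8) over the cycling cells and from 0 to 5866 CPM (median 313.004) over the non-cycling cells. Its log2 ratio was -2.93 (-3.05 to -2.82), and it was present in 9 of 21 cycling and 29 of 41 non-cycling cells. For each of these genes the highest cells were non-cycling, while both classes held cells at 0. Nupr1, a stress-induced chromatin protein, had 86.2 CPM in cycling and 654 CPM in non-cycling cells (log2 ratio -2.91, interval -3.02 to -2.80).

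The same rule, which itself asks for a like sign in both sets of plate columns, named further genes. Cish, a feedback inhibitor of cytokine receptors, had 7.45 CPM in cycling and 98.9 CPM in non-cycling cells and was present in 1 of 21 cycling and 14 of 41 non-cycling cells; without the top cells it stood at 2.87 against 82.4 CPM (log2 ratio -4.43). Mir22hg, the host transcript of a microRNA, was present in 1 of 21 cycling and 23 of 41 non-cycling cells (log2 ratio -3.07, interval -3.34 to -2.81). Cxcl14, a chemokine of the epidermis, had 86.2 CPM in cycling and 580.5 CPM in non-cycling cells (log2 ratio -2.74, interval -2.85 to -2.63), although its medians over cells were close, 82.9 and 76.7 CPM. Rnf167, a ubiquitin ligase, was present in 2 of 21 cycling and 21 of 41 non-cycling cells, and Ndrg2, a differentiation-linked gene, in 2 of 21 cycling and 14 of 41 non-cycling cells. Tenm2, a transmembrane adhesion protein, had 13.7 CPM in cycling and 96.6 CPM in non-cycling cells, and without the top cells 4.91 against 80.01 CPM (log2 ratio -3.78).

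Genes of the basal epidermal layer were transcribed in both classes. Of 14 measured basal genes 2 were 2-fold lower and none 2-fold higher (background 12.2% and 12.7%), with a median log2 ratio of -0.60 that spike-in scaling moved to 0.062. Krt14 ranged from 1017 to 29854 CPM (median 11628) over the cycling cells and from 274.1 to 38832 CPM (median 11009) over the non-cycling cells, with a log2 ratio of -0.044 (-0.055 to -0.034). Krt5, its partner, had -0.17. Krt15, a keratin of slow-cycling hair follicle bulge cells, had 27.7 CPM in cycling and 298.6 CPM in non-cycling cells (log2 ratio -3.38, interval -3.58 to -3.20) and was present in few cells of either class, 3 of 21 cycling and 9 of 41 non-cycling cells. Lama3, a chain of the basement membrane laminin, ranged from 0 to 1096 CPM (median 54.7) over the cycling cells and from 0 to 2431 CPM (median 392.8) over the non-cycling cells. It was present in 11 of 21 cycling and 33 of 41 non-cycling cells with a log2 ratio of -1.18 (-1.25 to -1.10). The hemidesmosome collagen Col17a1 had -0.87, which spike-in scaling moved to -0.21. It was past 2-fold without the top cells (-1.30), with the cut at 100 CPM (-1.31) and with both genes past the cut (-1.35), and stood at -0.51 in columns 1 to 12 and -1.54 in columns 13 to 24 of the plate.

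Differentiation genes ranged from rare to widespread in both classes. Of 15 measured 5 were 2-fold lower and 1 2-fold higher (background 12.2% and 12.7%), and the median was -0.40. The sign of that median depended on the setting, with 0.26 under spike-in scaling, 0.16 with the cut at 100 CPM and 0.34 with both genes past the cut. Dmkn and Krtdap, secreted proteins of the differentiating layers, were present in 19 of 21 cycling and 38 of 41 non-cycling cells and in 18 of 21 cycling and 30 of 41 non-cycling cells, with log2 ratios of -0.40 and 0.46. Ivl, a precursor of the cornified envelope, had 4.47 CPM in cycling and 29.001 CPM in non-cycling cells and was present in 1 of 21 cycling and 5 of 41 non-cycling cells. Calml3, a calmodulin-like protein of keratinocytes, had 9.69 CPM in cycling and 42.5 CPM in non-cycling cells and was present in 1 of 21 cycling and 7 of 41 non-cycling cells. Sprr2d, another envelope precursor, was higher, but 99.2% of its cycling reads came from 1 cell, and without the top cells its log2 ratio was -2.46. Among the keratins and factors of wounded epidermis only Il24, a cytokine, passed 2-fold, and its log2 ratio was -2.49 in columns 1 to 12 and 1.22 in columns 13 to 24 of the plate. Krt16 and Krt6b, wound keratins, likewise changed sign between the plate columns (-2.19 and 1.43 for Krt16, -4.32 and 3.59 for Krt6b, whose -0.98 over all cells was -1.88 without the top cells), whereas Krt17 had -0.82 with -0.82 in columns 1 to 12 and -0.80 in columns 13 to 24 of the plate.

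Of 14 measured junction genes 2 were 2-fold lower (background 12.2%), with a median of -0.31 (0.34 with spike-in scaling). Epcam itself ranged from 14.2 to 2244 CPM (median 582) over the cycling cells and from 61.2 to 3611 CPM (median 881) over the non-cycling cells and had a log2 ratio of -0.31 (-0.35 to -0.28). Cldn4, a tight junction claudin, had 107.6 CPM in cycling and 363.3 CPM in non-cycling cells and was present in 9 of 21 cycling and 22 of 41 non-cycling cells. Gjb2, a connexin, had 68.8 CPM in cycling and 150.1 CPM in non-cycling cells, a log2 ratio of -1.11 over all cells and -2.05 without the top cells, but it stood at -3.14 in columns 1 to 12 and 3.88 in columns 13 to 24 of the plate.

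**Figure D4:**
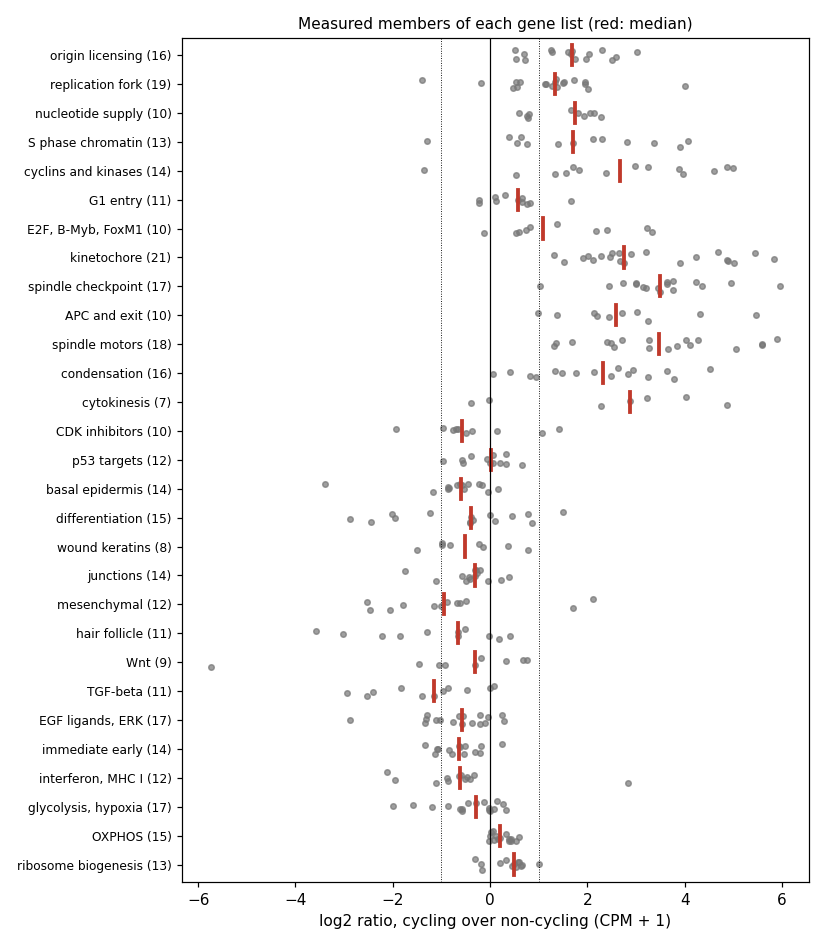
Log2 ratio of cycling over non-cycling Epcam-positive cells (CPM + 1) for each measured gene of 29 lists, with the number measured in brackets, the list median in red and 2-fold dotted. The mitotic lists have medians between 2.58 and 3.49, the S phase lists between 1.33 and 1.74, and the lists outside the cell cycle between -1.16 and 0.50.

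Of the signalling lists, that of TGF-beta kept a median below 0 with spike-in scaling, while the EGF receptor and immediate early lists did not. For TGF-beta, which restrains epithelial division and drives matrix production, 6 of 11 measured genes were 2-fold lower and none 2-fold higher (background 12.2%), with a median of -1.16 and, with spike-in scaling, -0.52. The ligand Tgfb2 had 1.99 CPM in cycling and 21.97 CPM in non-cycling cells (log2 ratio -2.94, interval -3.45 to -2.42) and was present in 0 of 21 cycling and 8 of 41 non-cycling cells. The receptor Tgfbr2 was present in 5 of 21 cycling and 15 of 41 non-cycling cells (log2 ratio -1.16, interval -1.37 to -0.96). Smad3, the signal transducer, had 9.32 CPM in cycling and 58.2 CPM in non-cycling cells (log2 ratio -2.52, interval -2.84 to -2.21) and was present in 1 of 21 cycling and 11 of 41 non-cycling cells. Among targets, the matrix protein Tgfbi ranged from 0 to 599 CPM (median 130.8) over the cycling cells and from 1.87 to 3549 CPM (median 284.9) over the non-cycling cells. Its log2 ratio was -1.82 (-1.90 to -1.74), with presence in 12 of 21 cycling and 35 of 41 non-cycling cells.

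For EGF receptor signalling 6 of 17 genes were 2-fold lower and none 2-fold higher (background 12.2%), with a median of -0.58 (0.077 with spike-in scaling). Epgn, the ligand epigen, ranged from 0 to 392.1 CPM (median 59.6) over the cycling cells and from 0 to 5276 CPM (median 182.1) over the non-cycling cells. It had a log2 ratio of -2.88 (-2.98 to -2.77) and was present in 11 of 21 cycling and 25 of 41 non-cycling cells. Ereg, the ligand epiregulin, had 97.7 CPM in cycling and 247.1 CPM in non-cycling cells (log2 ratio -1.33, interval -1.44 to -1.22), although its median over cells was higher in cycling cells (49.3 against 17.3 CPM). The ligand Areg had -1.12 (-1.16 to -1.08), with medians of 575 and 376.6 CPM in the same inverted order. For both ligands the higher non-cycling sum thus came from cells of very high level and not from the middle of the class. The receptor Egfr had 33.7 CPM in cycling and 83.8 CPM in non-cycling cells and was present in 6 of 21 cycling and 18 of 41 non-cycling cells. Of the 14 immediate early genes 4 were 2-fold lower (background 12.2%), with a median of -0.63 (0.030 with spike-in scaling). Zfp36, which degrades cytokine transcripts, had 208.1 CPM in cycling and 526 CPM in non-cycling cells (log2 ratio -1.33, interval -1.41 to -1.26), and the phosphatase Dusp1 956 CPM in cycling and 2050.5 CPM in non-cycling cells (log2 ratio -1.10, interval -1.14 to -1.06). Fos, the founding member, was near even at -0.20.

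Genes of the hair follicle, from which Lgr5-driven tumours can arise, were carried by cells of both classes. Sox9 and Runx1, transcription factors of the follicle, were present in 18 of 21 cycling and 39 of 41 non-cycling cells and in 18 of 21 cycling and 36 of 41 non-cycling cells, with log2 ratios of -0.52 and -0.66. Of 11 measured follicle genes 5 were 2-fold lower (background 12.2%), with a median of -0.66 (-0.059 with spike-in scaling). Tcf7l2, a Wnt effector, was present in 2 of 21 cycling and 21 of 41 non-cycling cells (log2 ratio -1.84, interval -2.06 to -1.63). Lhx2, a follicle transcription factor, was present in 0 of 21 cycling and 6 of 41 non-cycling cells (log2 ratio -3.02, interval -3.49 to -2.54, -3.78 without the top cells). Gli1, a target of Hedgehog, had no read in cycling cells and was present in 5 of 41 non-cycling cells. Summed over cells it was at least 29.6-fold lower in cycling cells, on a floor of 3 reads over the class. That bound covers counting of reads only. The 12.2% of non-cycling cells with Gli1 lay below the 14.3% that 0 of 21 cells allows. Lgr5, whose promoter drives Cre in these mice, had 3.11 CPM in cycling and 18.04 CPM in non-cycling cells and was present in 1 of 21 cycling and 3 of 41 non-cycling cells. Of 9 measured Wnt genes 3 were 2-fold lower (background 12.2%), all encoding secreted proteins. The list median was -0.31 (0.35 with spike-in scaling). Sfrp1 had 51.3 CPM in cycling and 142.1 CPM in non-cycling cells (log2 ratio -1.45, interval -1.60 to -1.30) and was present in 8 of 21 cycling and 23 of 41 non-cycling cells, Dkk3 in 10 of 21 cycling and 28 of 41 non-cycling cells. Wif1 had the largest ratio, -5.74 (-6.14 to -5.13), but from 5 non-cycling cells and 0 cycling ones. The Notch ligand Jag1 had 251.5 CPM in cycling and 538 CPM in non-cycling cells (log2 ratio -1.09, interval -1.16 to -1.02), while the receptor Notch1 was higher at 75.8 CPM in cycling and 29.2 CPM in non-cycling cells, a ratio of 0.85 without the top cells and of -0.13 with both rule genes past the cut.

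**Figure D5:**
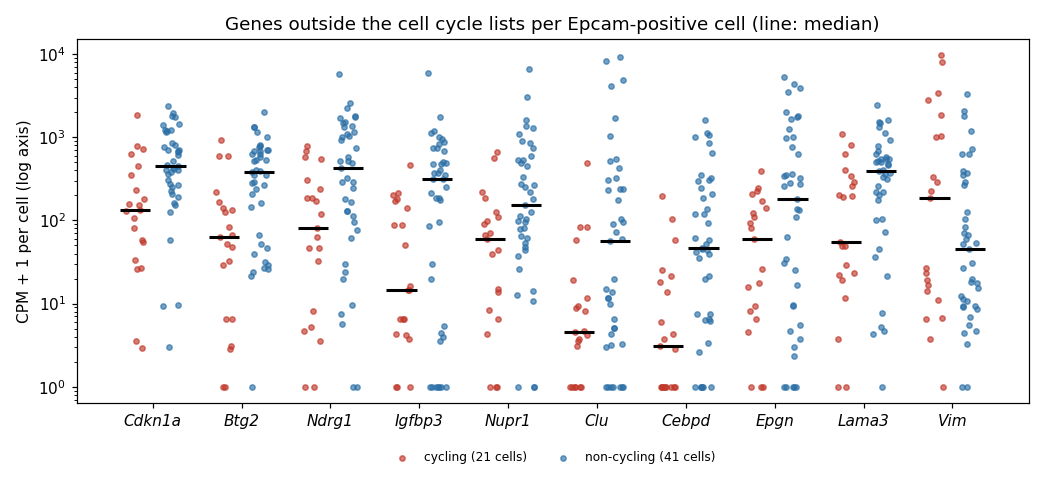
CPM + 1 (log axis) of 10 genes outside the cell cycle lists in each cycling (21) and non-cycling (41) cell, with class medians as bars. Medians of the first 9 genes are lower in cycling cells, Cdkn1a at 134.1 against 444 CPM, and Vim has the reverse order, yet cells of both classes overlap for every gene.

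Markers of other cell types were low in most cells of both classes. The summed level of 9 fibroblast and pericyte markers ran from 0 to 1169.7 CPM (median 11.2) in cycling and from 0 to 1451 CPM (median 38.8) in non-cycling cells, with Rgs5 and Des at 0 in both. At least 1 of them was present in 1 of 21 and 15 of 41 cells. The cycling one was the cell at 52.99 CPM just inside the cut, which had the sum of 1169.7 CPM. It held 90.4% of the cycling reads of the marker Dcn. The sum of 12 immune markers ran from 0 to 433.7 CPM (median 0) in cycling and from 0 to 432.4 CPM (median 4.995) in non-cycling cells. The highest cycling sum was again that of the cell at 52.99 CPM. At least 1 immune marker was present in 4 of 21 and 12 of 41 cells. Of the 6 endothelial markers Tek, Emcn and Cldn5 had no read in either class, and at least 1 marker was present in 3 of 21 and 2 of 41 cells. The endothelial adhesion molecule Pecam1 had 23.6 CPM in cycling and 8.40 CPM in non-cycling cells, a log2 ratio of 1.39 (1.09 to 1.69). Of 12 measured mesenchymal genes 6 were 2-fold lower and 2 higher (background 12.2% and 12.7%), with a median of -0.94 (-0.31 with spike-in scaling). Acta2, smooth muscle actin, had 105.1 CPM in cycling and 439 CPM in non-cycling cells (log2 ratio -2.05, interval -2.15 to -1.95) and was present in 5 of 21 cycling and 19 of 41 non-cycling cells. The collagens Col1a2 and Col5a2 rested on the non-cycling cell at 27.8 CPM, which held 65.7% and 78.3% of the non-cycling reads. Without the top cells their log2 ratios were -1.49 and -1.02, and with the cut at 25 CPM, which moves that cell, they were 1.90 and 2.61, against -2.47 and -2.53. The median of the mesenchymal list was then 1.07. The part of fibroblast RNA in the lower mesenchymal and TGF-beta genes was not tested.

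Most metabolic genes differed by less than 2-fold when scaled to gene reads. None of the 15 measured genes of oxidative phosphorylation passed 2-fold (background 12.7% higher). Of the 15, 14 were slightly higher in cycling cells, with a median of 0.20 (0.86 with spike-in scaling). Uqcrc2, a subunit of complex III, had 468 CPM in cycling and 309.7 CPM in non-cycling cells (log2 ratio 0.59, interval 0.53 to 0.65). For ribosome biogenesis 10 of 13 were higher and 1 passed 2-fold (background 12.7%). The median was 0.50, which spike-in scaling raised past 2-fold to 1.135. Ncl, nucleolin, ranged from 475 to 1987 CPM (median 1059.96) over the cycling cells and from 11.9 to 1719.7 CPM (median 672) over the non-cycling cells (log2 ratio 0.66, interval 0.62 to 0.70). Of 17 genes of glycolysis and hypoxia 3 were 2-fold lower (background 12.2%), with a median of -0.29 (0.34 with spike-in scaling). Ndrg1, induced by hypoxia and differentiation, ranged from 0 to 776 CPM (median 79.1) over the cycling cells and from 0 to 5718 CPM (median 428) over the non-cycling cells. Its log2 ratio was -1.996 (-2.07 to -1.92), with presence in 15 of 21 cycling and 34 of 41 non-cycling cells. Vegfa, the angiogenic factor, was present in 1 of 21 cycling and 13 of 41 non-cycling cells. Of 12 interferon and MHC class I genes 3 were 2-fold lower and 1 higher (background 12.2% and 12.7%). Their median was -0.62 (0.044 with spike-in scaling).

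The same cut in the Epcam-negative population, tumour cells sorted as YFP-positive without Epcam, gave 39 cycling cells, 14.8% of those kept (10.8 to 19.7%), beside the 33.9% (22.3 to 47.01%) of Epcam-positive cells. Each population is 1 sample and had its own plate rows, as assigned from the index pairs. This difference in share was therefore not tested and cannot be told apart from plate position. There, 766 of 9333 genes (8.21%) were 2-fold higher and 677 (7.25%) 2-fold lower. Among genes measured in both populations, those 2-fold higher in both made up 31.3% of the higher genes of Epcam-positive and 46.4% of those of Epcam-negative cells. For genes 2-fold lower in both the shares were 19.1% and 38.98%. The mitotic lists had a median log2 ratio of 3.79 there against 3.21 in Epcam-positive cells, and the S phase lists 1.69 against 1.51.

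Several genes gave different values in the 2 populations, none of them tested. The log2 ratio of Ccnd1 was 1.53 in the Epcam-negative population against 0.56 in the Epcam-positive one. The basal list had a median of 0.51 against -0.60, and the junction list 0.60 against -0.31. Lama3 stood at 0.49 against -1.18. Cdkn1a stood at -0.16 against -0.98, and Btg2 at -0.88 against -1.93. Among the genes lowest in cycling Epcam-positive cells, Clu (-1.50), Igfbp3 (-1.21) and Epgn (-1.06) were lower in cycling Epcam-negative cells too. Csf3 (0.052), Cish (0.045) and Tenm2 (0.034) had ratios near 0 there, and their levels in that population are not given here. With a pseudocount of 1 CPM, a gene with few reads in both classes also gives a ratio near 0. Gene reads per spike-in read had medians of 201.4 and 146.6 in cycling and non-cycling Epcam-negative cells.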

How the data were processed

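Single YFP-positive tumour cells were sorted into a 384-well plate and sequenced by Smart-seq2 with 1 x 50 bp reads. The authors deposited raw counts of reads for genes and spike-ins over 383 wells. Per the submitters' processing notes, cutadapt 1.13 trimmed the reads, STAR 2.5.2b aligned them to GRCm38 and HTSeq 0.6.0 counted them. Which annotation release and strand setting it used is not given in the sources used here. Counts of overlapping or near-identical genes (Krt6b, Sprr2d and Krt16 among those named) are therefore uncertain. Of 49585 gene identifiers 49326 were given a symbol from GENCODE vM21, and 259 were not matched.

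Cells were kept with at least 100000 gene reads, 2000 genes, at most 20% mitochondrial reads of gene reads and at most 50% spike-in reads of all reads. Reads were summed over a class and scaled to CPM over gene reads, and ratios used a pseudocount of 1 CPM. Intervals are exact Poisson (CPM), conditional binomial (ratios) and Clopper-Pearson (shares). No test was made, since each population is 1 sample. No doublet caller was run. Named genes were, per list, the 2 to 4 measured members of largest absolute ratio and any that went against the list's median by 2-fold. Beyond the lists they were the 12 highest, the 12 lowest and the 12 highest outside the cell cycle lists with at least 50 CPM and presence in at least 30% of cells of the higher class, a like sign in columns 1 to 12 and 13 to 24 of the plate, and 2-fold left without the top cell; not all are printed, and some items that the rule or labels name are not reported here. Other genes in the text (Mcm2, Mcm6, Uhrf1, Birc5, Ube2s, Krt5, Cdk6, Ccnd2, Tgfbr2, Areg, Fos, Sox9, Runx1, Dmkn and Krtdap) were added for their role after their values were seen. The members and lists were chosen with earlier results of these data known. Alternatives were other cuts, cell filters, TMM factors, spike-in scaling, a pseudocount of 10 CPM, a level of 1 CPM for a measured gene, the mean of cell CPM, the 2 sets of plate columns and leaving out top cells. The summing was tested on simulated data in which cells of a class differed only in depth and counting error. That test does not cover genes whose reads lie mostly in 1 cell. Python 3.11.15, numpy 2.4.6, scipy 1.17.1, pandas 2.3.3 and edgeR 4.0.16 (TMM factors only) were used.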

Additional observations from a re-analysis of the deposited data

Results flagged for a closer look

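One signal lay in a cell that the comparison did not use. An Epcam-positive cell left out for its depth and mitochondrial share (40054 gene reads, 32.1% mitochondrial) had 14 reads of Top2a, which is 350 CPM, and no read of Mki67. The other 7 Epcam-positive cells that were left out had no read of either gene.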

How the results depend on the processing

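No paired analysis was possible because each population is 1 sample, and the cells carry no replicate numbers that pair the classes. The number of cycling cells, 21, was 12 with both genes past the cut, 10 for plate columns 1 to 12 and 11 for columns 13 to 24. Genes 2-fold higher, 1170, were 3313 with spike-in scaling, 620 with a pseudocount of 10 CPM and 2224 among genes with at least 1 CPM. Genes 2-fold lower, 1131, were 436, 592 and 2429 under the same settings and 1875 in plate columns 13 to 24. The RNA content ratio, 1.18, was 1.40 with the cut at 25 CPM, 1.59 at 100 CPM and with Mki67 alone, 1.44 with Top2a alone, 1.78 with both genes, 1.47 with no filter on cells, 1.46 with the stricter filter, 1.35 and 1.72 in the 2 sets of plate columns, and 1.62 without the cells at 25 to 100 CPM, an alternative chosen after seeing the data. Some genes changed direction. With the cut at 25 CPM, Csf3 stood at 0.12, Col5a2 at 2.61 and Col1a2 at 1.90. Notch1 stood at -0.044 with the cut at 100 CPM, -0.19 with Mki67 alone and -0.13 with both genes, where Vim stood at -0.43. In plate columns 1 to 12, Gins3 stood at -0.41, Cdkn2d at -0.41 and Sprr2d at -3.69. In columns 13 to 24, Il24 stood at 1.22, Gjb2 at 3.88, Col1a2 at 0.17, Nr4a1 at 0.032 and Adm at 1.26. Without the top cells Sprr2d stood at -2.46. The cause of these shifts was not tested. Of the genes past 2-fold that the rule named, those not listed here kept their direction in each of these settings; genes added to the text for their role were not run under all of them. Depth limits genes present in few cells, and no replicate sample exists to give their spread.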
